A study of Mus musculus with 12 samples.

Results

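Most miRNAs are cut in a pair of steps: the Microprocessor (Drosha and Dgcr8) frees a hairpin from the primary transcript in the nucleus, and Dicer then cuts the hairpin into a short duplex whose arms are named 5p and 3p. A few miRNAs skip the first cut. In mirtrons the hairpin is a short intron released by splicing, and a capped hairpin such as that of miR-320 is made as a short transcript of its own, with a capped 5′ end that leaves mainly the 3p arm for use by Argonaute. Embryonic stem cells (ESC) without Dgcr8 lose canonical miRNAs but keep members of these classes, which is how many of them were recognised. The members described here are 6 mature miRNAs, taken by name from the 1549 features of the count table: mmu-miR-320-3p and mmu-miR-484, which come from capped or transcription-start hairpins, and mmu-miR-877-5p, mmu-miR-877-3p, mmu-miR-1981-5p and mmu-miR-702-3p, which come from mirtrons. The species prefix mmu is left out below. The 1349 mouse-named miRNAs outside this and related non-canonical lists served for comparison and are called canonical, although some of them may have an unannotated origin.

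Small RNA was counted in 12 libraries of mouse cells with no engineered mutation named in the labels. Androgenetic haploid ESC, which carry paternal chromosomes only, were sequenced in 2 libraries of line A129-2, 3 of line A129-6 and 2 of line A129-17. They were set against 2 libraries of R1, a diploid ESC line, and both were set against 3 libraries of round spermatids (RS), haploid germ cells sorted by Hoechst staining from testes of 129Sv males (no age is named). The culture protocol in the labels, with LIF and the 2i kinase inhibitors PD0325901 and CHIR99021, is written for the androgenetic lines, and none is given for R1 alone. Libraries are labelled as replicate sorts. Separate cultures or animals were not named, so every SD and p here describes how these libraries vary, which may be technical, and R1 is a single line.

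The ESC libraries held 3709786 to 9176080 counts and the spermatid libraries 155232 to 243714, so a miRNA at a few counts per 1e6 reads (CPM) could be missed in spermatids. Markers followed the labels: 5 ESC markers of the miR-290 and miR-302 families made up 6.04 to 8.53% of counts in the haploid lines, 9.10 to 9.74% in R1 and 0.00533 to 0.131% in RS, and 5 germ cell markers made up 0.0281 to 0.166% in the haploid lines, 0.102 to 0.106% in R1 and 26.1 to 35.1% in RS. Markers of blood and endothelium (5 miRNAs) reached 0.0202% of counts in the haploid lines, 0.0275% in R1 and 1.33% in RS, and 4 mesenchymal markers reached 2.65% in the haploid lines, 1.52% in R1 and 6.56% in RS. The germ cell markers miR-34b-5p and miR-449a-5p were at 0 counts in some haploid lines (miR-34b-5p in A129-6 and A129-17, miR-449a-5p in A129-2), and no marker was at 0 in all haploid lines, in R1 or in RS. In bulk RNA, fewer cells of a type and less RNA per cell cannot be told apart.

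The mature sequences of 5 members, from RefSeq on GRCm38.p6, are given because their base composition bears on the comparison with R1. Capitals mark the seed, bases 2 to 8, which pairs with target transcripts. No 2 of these seeds were alike, and none was found in any other named row of the table with a sequence, so this is no seed family.
miR-484: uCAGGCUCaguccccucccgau
miR-877-5p: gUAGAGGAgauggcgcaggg
miR-877-3p: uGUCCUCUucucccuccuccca
miR-1981-5p: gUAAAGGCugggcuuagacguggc
miR-702-3p: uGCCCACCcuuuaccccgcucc

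The mirtron structure could be read directly from the annotation (GENCODE M21, GRCm38). The Mir877 hairpin, chr17:35960730-35960814 on the minus strand, coincided base for base with intron 12 of Abcf1, an 85-base intron of a gene for a protein of translation initiation. The Mir1981 hairpin, chr1:184822407-184822488 on the minus strand, coincided with intron 5 of Marc2 (transcript Marc2-201), an 82-base intron of a mitochondrial reductase gene. Both hairpins are shown with the 2 mature arms in capitals. In each, the 5p arm starts at the splice donor (gu) and the 3p arm leaves at most the last 2 bases of the intron, its splice acceptor (ag).
Mir877: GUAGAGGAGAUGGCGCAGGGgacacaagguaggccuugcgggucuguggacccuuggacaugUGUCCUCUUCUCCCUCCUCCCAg
Mir1981: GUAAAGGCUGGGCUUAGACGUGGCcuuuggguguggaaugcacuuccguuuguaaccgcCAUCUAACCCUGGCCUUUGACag

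Mir702 lay mostly in intron 13 of Plod3 (chr5:136991442-136991543, plus strand, 102 bases), a collagen lysyl hydroxylase gene. The annotated hairpin, chr5:136991433-136991541, began 9 bases before the intron, in the preceding exon, and ended 2 bases before the intron's end. Its 5p arm began at the first base of the intron. The Mir484 hairpin, chr16:14159626-14159692 on the plus strand, was not in an intron on its own strand. It lay opposite the protein-coding transcript Marf1-202, partly over an exon of it, and the mature miRNA began 4 bases after the first base of the annotated hairpin.

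The haploid lines were set against R1 to ask how androgenetic haploid ESC differ from diploid ESC. In the haploid lines, 5 of the 6 members were higher than in R1 by 1.61 to 4.06 on the log2 scale, and miR-702-3p did not pass the test. The summed share of the 6 members was 0.934 ± 0.303% of counts in the haploid lines (SD, n = 3 line means) and 0.105 ± 0.00435% in R1 (n = 2 libraries), so the haploid lines' share was the higher in each of 7 libraries (0.561 to 1.72%, against 0.102 and 0.108% in R1). Such a direction was common. Of 757 miRNAs tested with edgeR's quasi-likelihood test at an adjusted p of 0.05, 70.5% were called, 35.3% as higher and 35.3% as lower. Among 721 canonical miRNAs, 248 were higher and 263 lower, with a median log2 difference of 0.15 and quartiles at -1.92 and 1.92. The median of the 6 members was 2.82.

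Markers of other cells moved in both directions in the same comparison. Of 4 mesenchymal markers, 2 were higher and 1 lower in the haploid lines. miR-214-3p had 204 to 1159 CPM in the haploid lines, against 13.3 and 14.5 CPM in R1 (log2 difference 5.04, SE 0.47, edgeR adjusted p = 1.69e-07), a greater difference than that of any member. miR-199a-3p was higher by 1.15 (adjusted p = 0.0088), miR-145a-5p was lower (-1.40, adjusted p = 0.00173), and miR-143-3p, which made up most of the summed share of these markers in every group, did not pass (-0.30, adjusted p = 0.389). Of 3 tested markers of blood and endothelium, miR-451a and miR-486a-5p were higher and miR-126a-3p lower. Of 3 tested germ cell markers, miR-741-3p was higher, and miR-34c-5p and miR-881-3p were lower. The part of such cells in the members' differences was not tested.

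miR-320-3p, the capped-hairpin miRNA studied most, had 2627 and 3906 CPM in A129-2, 2782, 2089 and 4379 CPM in A129-6, and 4001 and 3167 CPM in A129-17, against 234 and 229 CPM in R1. Every haploid library stood far above both R1 libraries, and the 3 lines overlapped each other. The log2 difference was 4.06 (SE 0.52, edgeR adjusted p = 5.16e-06), a 16.7-fold difference, and 37 of 721 canonical miRNAs had a larger one. Ranked by counts among the named miRNAs, miR-320-3p stood between 23rd and 51st in the haploid libraries and at 155th and 158th in R1. Taken line by line, A129-2 differed from R1 by 3.80 ± 0.55, A129-6 by 4.03 ± 0.54 and A129-17 by 4.35 ± 0.56 (log2 ± SE of the fit).

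miR-484, whose hairpin lies at a transcription start in human cells, had 810 and 643 CPM in A129-2, 573, 687 and 330 CPM in A129-6, and 370 and 438 CPM in A129-17, against 176 and 207 CPM in R1. The haploid libraries did not overlap R1, though A129-6 replicate 3 and A129-17 replicate 1 came closest. The log2 difference was 1.61 (SE 0.24, edgeR adjusted p = 2.47e-05). That lay between the quartiles of canonical miRNAs, of which 218 had a larger value.

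**Figure D1:**
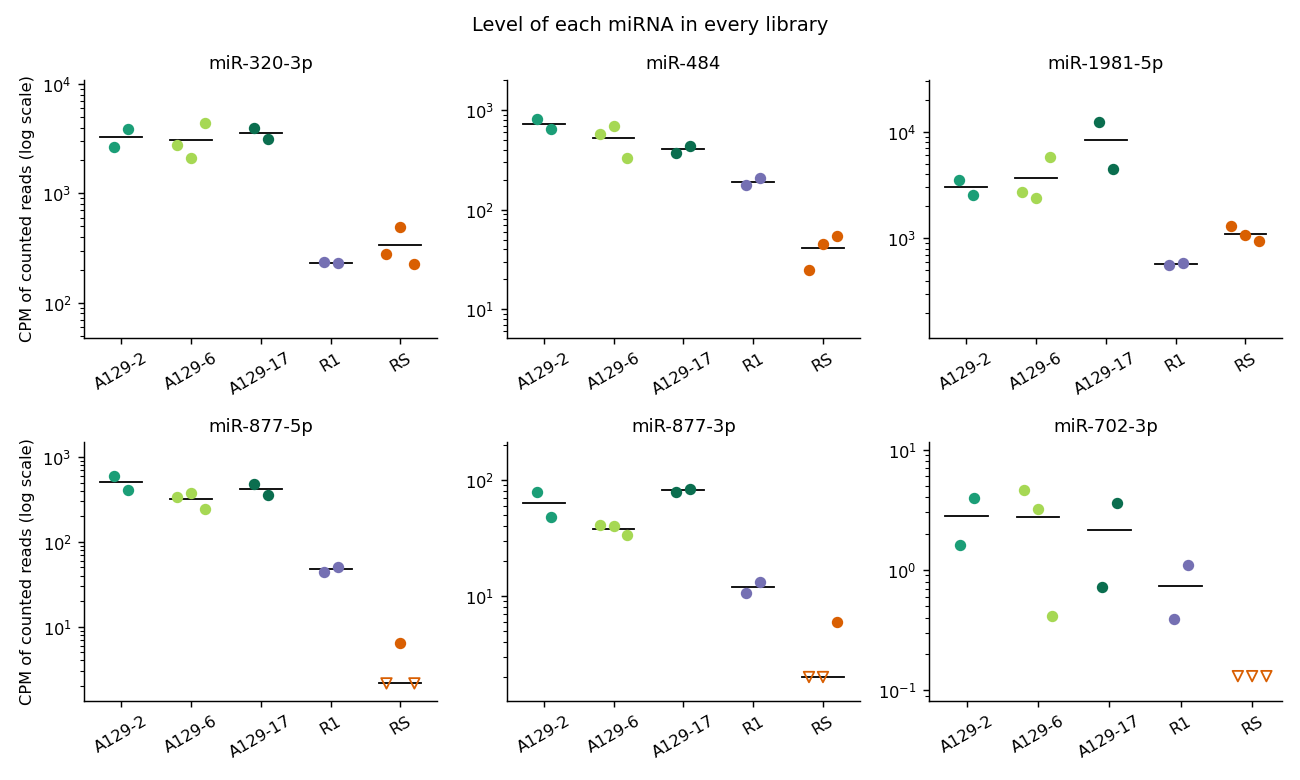
Level of each of the 6 miRNAs in CPM of counted reads (log scale) in every library of the haploid ESC lines A129-2, A129-6 and A129-17, of R1 and of round spermatids (RS). Points are libraries, lines are group means, and open triangles at the bottom of a panel are libraries with 0 counts. All haploid libraries lie above R1 except for miR-702-3p, and miR-877 and miR-702 are at 0 counts in 2 or 3 of the 3 RS libraries.

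Both arms of the mirtron miR-877 were higher in the haploid lines. miR-877-5p had 594 and 412 CPM in A129-2, 336, 380 and 244 CPM in A129-6, and 476 and 359 CPM in A129-17, against 44.4 and 51.1 CPM in R1. miR-877-3p had 79.2 and 47.5 CPM in A129-2, 40.5, 39.9 and 33.4 CPM in A129-6, and 78.5 and 84.1 CPM in A129-17, against 10.6 and 13.1 CPM in R1. For both arms each haploid library exceeded each R1 library. The log2 difference was 3.23 for the 5p arm (SE 0.30, edgeR adjusted p = 1.63e-07; 73 of 721 canonical miRNAs had a larger value). It was 2.42 for the 3p arm (SE 0.33, edgeR adjusted p = 1.13e-05; 133 canonical miRNAs had a larger value).

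The mirtron miR-1981-5p was the most abundant member in 7 of the 9 ESC libraries and in all 3 RS libraries. It had 3499 and 2536 CPM in A129-2, 2698, 2408 and 5818 CPM in A129-6, and 12272 and 4430 CPM in A129-17, against 557 and 582 CPM in R1. The lowest haploid library was still far above R1, but libraries of a line differed widely, and in A129-17 replicate 1 it was the 6th most counted named miRNA. The log2 difference was 3.21 (SE 0.58, edgeR adjusted p = 0.000169), with 75 canonical miRNAs above it. A129-2 differed from R1 by 2.30 ± 0.61, A129-6 by 3.01 ± 0.60 and A129-17 by 4.32 ± 0.66 (log2 ± SE of the fit).

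The other arm of this mirtron gave a different picture. miR-1981-3p had 28.8 and 31.3 CPM in A129-2, 30.5, 31.8 and 18.0 CPM in A129-6, and 23.7 and 17.7 CPM in A129-17, against 21.6 and 18.1 CPM in R1. The groups overlapped, and the log2 difference of 0.51 (SE 0.34, edgeR adjusted p = 0.188) did not pass the test. It did with upper-quartile scaling (0.82, adjusted p = 0.0380), with a stricter filter on low counts (0.83, adjusted p = 0.0344) and when the RS libraries entered the same fit (1.37, adjusted p = 0.00458). The canonical median was then higher too, at 0.46, 0.29 and 0.87 in that order, against 0.15 in the main fit. With a correction for the GC content of miRNAs in each library the difference of miR-1981-3p was 0.06 (adjusted p = 0.877). miR-702-3p was counted only 3 to 36 times per haploid library and 3 and 10 times in R1, and its log2 difference of 1.85 (SE 0.92, edgeR adjusted p = 0.0834) did not pass. It did without A129-6 replicate 3 (2.01, adjusted p = 0.0358) and without A129-17 replicate 1 (2.04, adjusted p = 0.0490).

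Line by line, the same 5 members were called higher against R1 in A129-2, in A129-6 and in A129-17, and 0 of 6 lower. Of all miRNAs tested, A129-2 had 31.0% called higher and 28.8% lower (59.8% in either direction). A129-6 had 67.1% called, with 35.0% higher against 32.1% lower. For A129-17 the called share was 66.2%, split into 34.6% higher and 31.6% lower. These 3 comparisons share the R1 libraries. Between the 3 haploid lines, 3.83% of miRNAs were called and 0 of 6 members, with 2 members under an unadjusted p of 0.05. miR-877-3p came nearest (edgeR adjusted p = 0.0589), with group means of 63.4 CPM in A129-2, 37.9 CPM in A129-6 and 81.3 CPM in A129-17, and miR-1981-5p followed (adjusted p = 0.104). Without A129-6 replicate 3, miR-877-3p was called (adjusted p = 0.0217), and DESeq2 called it too (adjusted p = 0.00314). miR-1981-5p was called without A129-6 replicate 3 (adjusted p = 0.00763), A129-17 replicate 2 (0.0167), R1 replicate 1 (0.0338) or R1 replicate 2 (0.0460).

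Base composition moved with these differences. The 5 members with a sequence were 58.3 to 68.2% GC, against a median of 50% in canonical miRNAs. Across canonical miRNAs the median log2 difference between haploid lines and R1 was -3.06 under 35% GC (n = 38), -2.48 at 35 to 45% (n = 138), -0.23 at 45 to 55% (n = 240), 1.75 at 55 to 65% (n = 123) and 1.86 from 65% (n = 57). These 5 members therefore lay among miRNAs that were mostly higher in the haploid lines. Of them, miR-484 (63.6% GC) and miR-702-3p (68.2% GC) lay near the median for their composition. miR-320-3p was the member without a sequence, so its GC content and a GC-corrected difference could not be given.

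In the fit with a correction for GC content in each library, 402 of 609 miRNAs were called in either direction. This correction covered 609 of the 757 miRNAs and 5 of the 6 members, and 3 members stayed higher in the haploid lines. These were miR-877-5p (log2 difference 1.81, SE 0.26, edgeR adjusted p = 2.13e-05), miR-877-3p (1.30, SE 0.30, adjusted p = 0.00132) and miR-1981-5p (2.11, SE 0.52, adjusted p = 0.00214). The call was lost for miR-484 (0.26, SE 0.23, adjusted p = 0.321), and in A129-17 its sign turned (-0.05). miR-702-3p had 0.43 (SE 0.91, adjusted p = 0.70). Whether the relation with GC arose in the cells or in making the libraries was not tested.

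**Figure D2:**
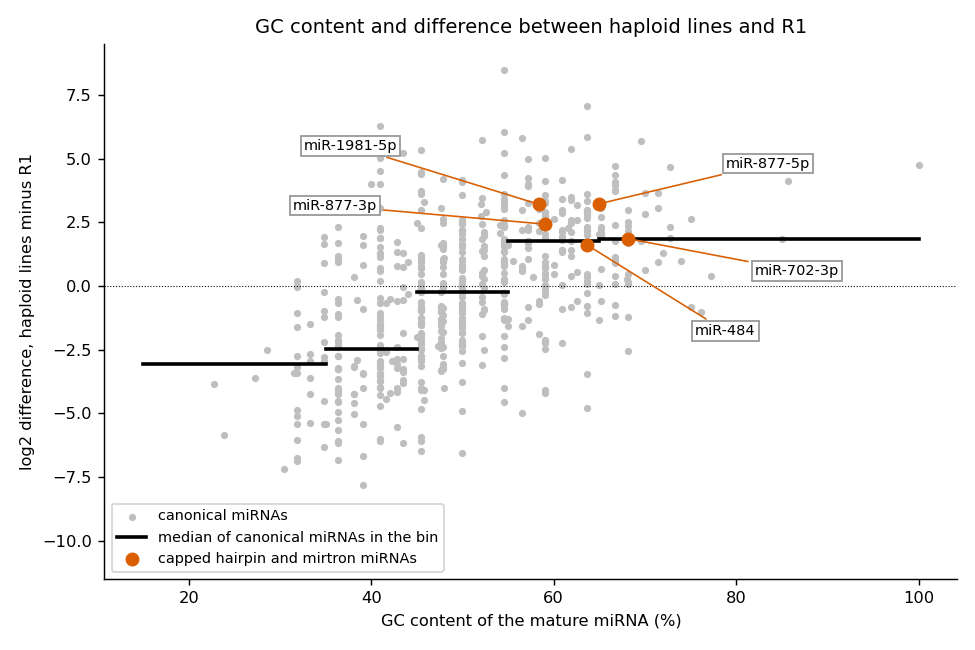
log2 difference, haploid lines minus R1 (vertical axis), against GC content of the mature miRNA in percent (horizontal axis). Grey points are canonical miRNAs, black bars their medians in 5 GC bins, which run from -3.06 to 1.86, and orange points the 5 members with a sequence, which lie between 58.3 and 68.2% GC.

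**Figure D3:**
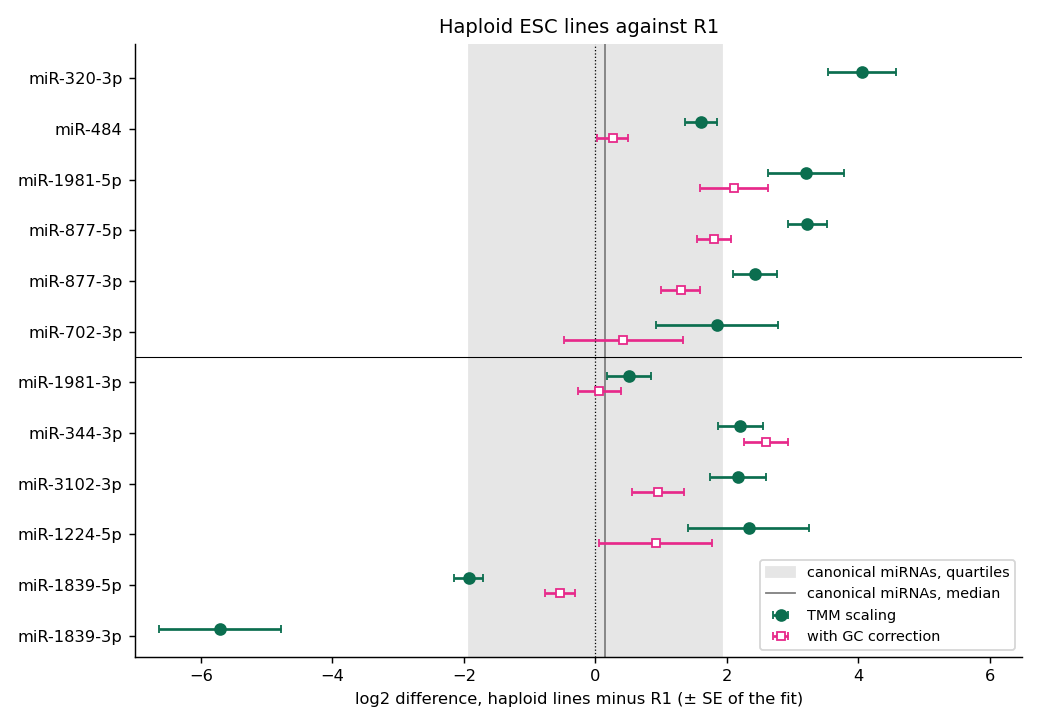
log2 difference, haploid lines minus R1, with the SE of the fit, for the 6 members (above the line) and for the other arm of miR-1981 and further non-canonical miRNAs (below the line). Circles are the TMM-scaled fit and squares the fit with GC correction. The grey band spans the quartiles of canonical miRNAs and the grey line their median of 0.15. Among the members miR-320-3p at 4.06 lies farthest to the right and the squares of miR-484 and miR-702-3p lie nearest to 0.

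Other non-canonical miRNAs did not all move the same way. Of 8 listed rows in the table, 6 were tested, of which 4 were higher and 2 lower in the haploid lines, with a median log2 difference of 2.19. miR-344-3p, from another capped hairpin, had 79.8 to 177 CPM in the haploid lines, against 31.7 and 31.8 CPM in R1 (log2 difference 2.21, SE 0.34, edgeR adjusted p = 3.32e-05). The mirtron miR-3102-3p had 13.2 to 23.7 CPM in the haploid lines, against 3.41 and 4.58 CPM in R1 (2.17, SE 0.43, adjusted p = 0.00036). Neither overlapped R1, and both calls were kept with GC correction (2.60 and 0.95). The mirtron miR-1224-5p was barely counted (0.892 to 2.70 CPM in the haploid lines, against 0.131 and 0.545 CPM in R1), and its call (log2 difference 2.33, adjusted p = 0.0342) was lost in 12 of 20 alternatives. These included GC correction (0.92, adjusted p = 0.36), the RLE and total-count scalings, no filter, and leaving out any one of 5 libraries.

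miR-451a, which needs Drosha but is cut by Argonaute 2 in place of Dicer and is also a red blood cell marker, had 11.3 to 134 CPM in the haploid lines (31.2 CPM at most outside A129-6 replicate 2), against 4.32 and 5.34 CPM in R1 (log2 difference 2.64, SE 0.70, edgeR adjusted p = 0.00349). With GC correction its difference was greater, at 4.73 (SE 0.77, adjusted p = 6.93e-05), whereas those of the 5 members with a sequence were smaller. Both arms of miR-1839, derived from a small nucleolar RNA, were lower in the haploid lines. miR-1839-5p had 81.3 to 213 CPM there, against 571 and 601 CPM in R1 (log2 difference -1.93, SE 0.22, adjusted p = 1.83e-06). Its sequence is 40.9% GC, and with GC correction the difference was -0.54 (adjusted p = 0.0481). miR-1839-3p had 0 to 0.871 CPM in the haploid lines, against 5.24 and 6.76 CPM in R1, and 0 counts in both A129-2 libraries.

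For scale, the canonical miR-16-5p had 21.8 to 132 CPM in the haploid lines, against 1093 and 1185 CPM in R1 (log2 difference -4.07, SE 0.28, edgeR adjusted p = 5.44e-09). miR-103-3p and miR-191-5p, often used as steady references, had log2 differences of -0.88 (adjusted p = 0.00428) and -0.64 (adjusted p = 0.0301). When the RS libraries entered the same fit these were -0.01 and 0.22, neither called. Neither call was kept with counts summed per line or without R1 replicate 1 (adjusted p = 0.060 for miR-103-3p and 0.173 for miR-191-5p). That of miR-103-3p was also lost with GC correction (-0.48, adjusted p = 0.0811). That of miR-191-5p was also lost with upper-quartile scaling (-0.33), with the stricter filter (-0.33), and without A129-6 replicate 1 (adjusted p = 0.0617), A129-6 replicate 2 (0.0585) or R1 replicate 2 (0.119).

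A pair of haploid libraries stood apart. A129-6 replicate 3 and A129-17 replicate 1 had the lowest TMM factors (0.701 and 0.758, against 0.918 to 1.38 in the other haploid libraries and 1.05 and 1.11 in R1), and miR-292a-5p alone took 56.9% and 56.5% of their counts. They held the 2 highest levels of miR-320-3p and of miR-1981-5p, and the 2 lowest of miR-484 and of miR-702-3p. Without both libraries, an alternative added after seeing the data, A129-17 kept only replicate 2. The log2 differences, haploid lines minus R1, were then 3.67 for miR-320-3p, 1.59 for miR-484 and 3.04 for miR-877-5p. They were 2.29 for miR-877-3p, 2.48 for miR-1981-5p and 2.18 for miR-702-3p. Dropping the 2 haploid libraries with the lowest miR-702-3p by itself raises the difference of that miRNA.

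Reads of both arms of a hairpin come from 1 library, so their ratio needs no scaling between libraries. The arms can still differ in GC content: 58.3% in miR-1981-5p against 52.4% in miR-1981-3p, and 65.0% in miR-877-5p against 59.1% in miR-877-3p. Arm shares were not corrected for GC, and its part in them was not tested. Within the miR-1981 hairpin, the 3p arm took 0.192 to 1.30% of reads in the haploid lines, against 3.74 and 3.01% in R1. Within miR-877, the 3p arm took 9.52 to 19.0% in the haploid lines, against 19.3 and 20.4% in R1. Within miR-320, the 5p arm took 0 to 0.0150% in the haploid lines, against 0.502 and 0.332% in R1, a share that rests on 6 reads in 7 haploid libraries and 16 reads in R1. The dominant arm thus had a greater share in every haploid library than in either R1 library for all 3 hairpins. For miR-877 the gap between A129-17 replicate 2 (81.0% 5p) and R1 replicate 1 (80.7% 5p) was smaller than their counting intervals.

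The 5p share differed by 2.61 percentage points for miR-1981, 7.32 for miR-877 and -0.41 for miR-320 (haploid lines minus R1). Each gave a two-sided exact permutation p of 0.0278, the smallest that 7 against 2 libraries allow, and an adjusted p of 0.0463 over 5 tests. Libraries, not lines, were the units of this test and of these means, so A129-6, with the most libraries, weighed most. The remaining tests, all ESC against RS, were not called (permutation adjusted p = 0.409 for miR-320 and 0.307 for miR-1981). For the haploid lines against R1, leaving out any library ended the call, since the smallest p then rises. Such separation was common: 49.0% of 263 precursors with both arms counted had 5p shares that did not overlap between the haploid lines and R1, and among 257 canonical ones 57 were higher and 69 lower. The log2 shift in the ratio of 5p to 3p counts was 2.53 for miR-1981, 0.79 for miR-877 and -6.50 for miR-320 (0.5 added to each count). A shift of at least that size was found in 69 canonical precursors for miR-1981, 190 for miR-877 and 2 for miR-320, and the median size of a canonical shift was 1.67. No miR-320-5p read was counted in A129-2 replicate 2, A129-6 replicates 2 and 3 and A129-17 replicate 2. The size of the miR-320 shift, and so its rank, therefore depends on the 0.5 added and on the 3p counts.

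**Figure D4:**
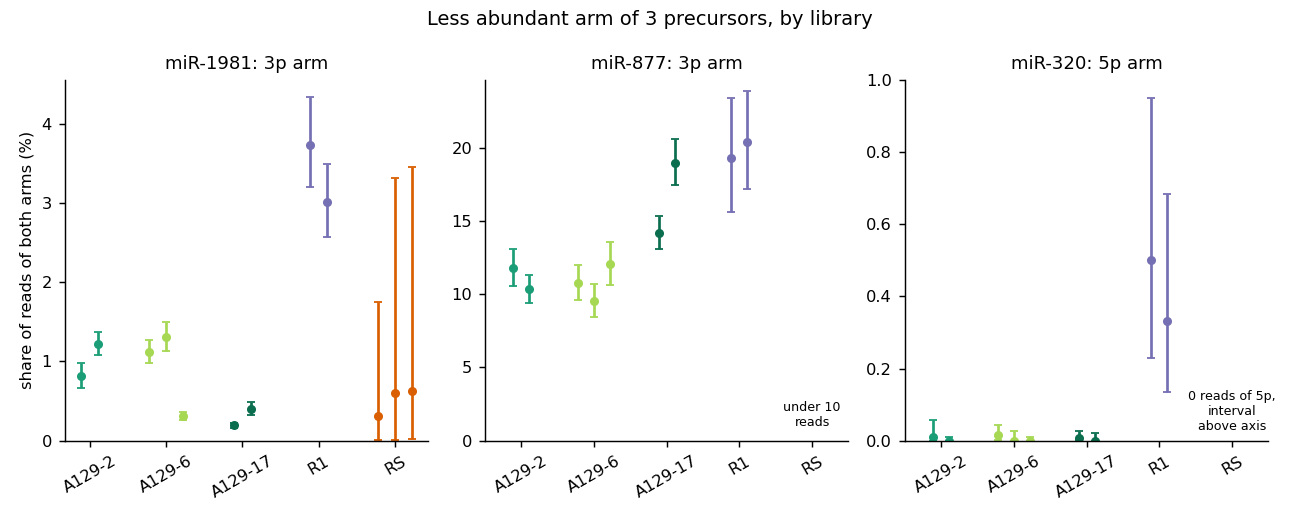
Share of the less abundant arm, in percent of reads of both arms, in each library for miR-1981 (3p), miR-877 (3p) and miR-320 (5p). Bars are exact 95% binomial intervals, which cover counting error only; haploid libraries lie below R1 in all 3 panels, and RS libraries had under 10 reads of miR-877 and no miR-320-5p read.

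The haploid lines and R1 were each set against round spermatids. In the haploid lines 5 of 6 members were higher than in RS, where 44.5% of 806 miRNAs tested were called higher and 20.8% lower (65.4% in either direction). Canonical miRNAs had a median log2 difference of 2.62 in this comparison, with 347 of 767 higher and 161 lower, so the members are read against a background that is itself raised. In R1 3 of 6 members were higher than in RS, where 53.0% of miRNAs were called, 33.6% as higher and 19.4% as lower, and the canonical median was 2.02. Both comparisons use the same RS libraries.

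miR-484 had 24.6, 45.1 and 54.0 CPM in RS, below every ESC library. Its log2 difference was 5.48 for the haploid lines minus RS (SE 0.41, edgeR adjusted p = 7.13e-11; 243 of 767 canonical miRNAs had a larger value) and 3.02 for R1 minus RS (SE 0.43, adjusted p = 1.85e-06). The lowest alternative for the haploid lines minus RS was 3.62, with GC correction, and still called. miR-320-3p had 279, 496 and 228 CPM in RS, below every haploid library and overlapping R1. Its log2 difference was 5.19 for the haploid lines minus RS (SE 0.54, adjusted p = 1.45e-08; 255 canonical miRNAs had a larger value). With total-count scaling this was 3.31, still called, beside a canonical median of 1.00. For R1 minus RS the difference of miR-320-3p was 0.26 (SE 0.53, adjusted p = 0.699). That sign turned with upper-quartile scaling (-0.73) and total-count scaling (-0.53), and without RS replicate 2 the difference was 1.55 and called (adjusted p = 0.0160).

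The mirtron miR-877 was nearly absent from the spermatid counts. Its 5p arm was counted once in RS replicate 2 and its 3p arm once in RS replicate 3, in 565641 counts over the 3 libraries. The ratio of pooled CPM for the 5p arm was 219 in the haploid lines over RS (95% interval 39.3 to 8642) and 27.2 in R1 over RS (4.87 to 1075). For the 3p arm it was 31.0 (5.56 to 1224) and 6.76 (1.2 to 268). The fitted tests called all 4 differences, that of the 3p arm in R1 over RS with an adjusted p of 0.00331 (edgeR), which was 0.0573 with upper-quartile scaling.

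Unlike miR-877, the mirtron miR-1981-5p was well counted in spermatids. miR-1981-5p had 1293, 1063 and 948 CPM in RS, below every haploid library and above both R1 libraries. Its log2 difference was 3.84 for the haploid lines minus RS (SE 0.55, edgeR adjusted p = 1.81e-06; 322 of 767 canonical miRNAs had a larger value). With total-count scaling this was 2.03, still called. For R1 minus RS the difference was -0.22 (SE 0.61, adjusted p = 0.764), and its sign turned in 15 of 22 alternatives. TMM factors were 1.89 to 2.63 in RS and 1.31 in both R1 libraries, which is why the CPM and the fitted values differ. miR-702-3p had 0 counts in all 3 RS libraries, but its ESC levels of 0.393 to 4.58 CPM lay under the 5.30 CPM that 3 counts over RS amount to, so absence could not be told at this depth. miR-344-3p also had 0 counts in RS and exceeded that limit in every ESC library, at 31.7 to 177 CPM.

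The order of group means was not the same for all members, and in part it turned with the scaling. In CPM of counted reads, for miR-320-3p and miR-1981-5p it was A129-17 highest, then the other haploid lines, then RS, with R1 lowest, and RS and R1 overlapped for miR-320-3p but not for miR-1981-5p. In TMM-scaled CPM, miR-320-3p had R1 at 176 ± 2.48 (SD, n = 2) above RS at 147 ± 42.5 (n = 3), and for miR-1981-5p the R1 range of 424 to 445 lay inside the RS range of 405 to 683, so R1 and RS overlapped for both. For miR-484 and miR-877 all haploid lines stood above R1 and R1 above RS, with no overlap at either step on either scale. Among the haploid lines neighbours in the order of unscaled CPM overlapped except A129-2 and A129-6 for miR-877-3p. The summed share of the 6 members was 0.148 ± 0.0212% of counts in RS (SD, n = 3), where miR-1981-5p made up 66.0 to 81.0% of it.

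By the root mean square difference in centred log2 group means over the 5 groups, among 775 other named miRNAs, miR-501-3p (0.17) was most like miR-320-3p and miR-652-3p (0.13) most like miR-484. Nearest to miR-877-5p was miR-673-5p (0.43), to miR-877-3p miR-342-5p (0.20), to miR-1981-5p miR-1306-3p (0.19) and to miR-702-3p miR-7073-5p (0.13). The 6 members were left out of the candidates, so their 6 different nearest miRNAs do not tell whether the members were alike.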

How the data were processed

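The authors deposited raw counts of small RNA reads per miRNA, with no normalisation. Per the labels' protocols, a NEBNext small RNA kit was used, with 3′ then 5′ adapter ligation, PCR and gel size selection. Bowtie 0.12.9 and DESeq2 are named per the submitters' processing notes. For the build, the miRBase release and reads with several matches, the settings are not given in the sources used here.

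Counts were fitted in R 4.3.3 with edgeR 4.0.16 (filterByExpr with minimum count 10 and minimum total 15, TMM scaling, quasi-likelihood F-test, Benjamini-Hochberg adjustment over all features tested, threshold 0.05). The 9 ESC libraries were fitted together, and all 12 for comparisons with RS. In these fits the 3 haploid lines weighed equally. SE is the log2 difference over the square root of F. CPM in the text are per 1e6 counted reads, without TMM. Arm shares (at least 10 reads per library) were compared by exact permutation over libraries. GC correction was a loess curve per library (span 0.5). Intervals and the floor of 3 counts cover counting error only, at 95%. DESeq2 1.42.0 was an alternative. The scripts were tested on simulated data. Replicates were not identical and differed by more than counting noise. The labels give groups the same replicate numbers without saying that they pair. Sequences were matched by name for 1158 of 1366 named rows.

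The 6 members, the other arms, further non-canonical miRNAs, 3 canonical examples, the markers and the 3 nearest patterns of each member made up the naming rule. Members and lists were chosen with earlier results of these data known.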

Additional observations from a re-analysis of the deposited data

How the results depend on the processing

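Of the 6 members, 5 stayed higher in the haploid lines than in R1 under every alternative run except GC correction, which could be fitted for 5 members and called 3 (2 in A129-2, 3 in A129-6, 3 in A129-17). Of all 609 miRNAs fitted, GC correction called 402 in either direction (318 in A129-2, 371 in A129-6, 373 in A129-17). There miR-484 in A129-17 turned to -0.047 and miR-1981-3p in A129-17 to -0.050. Leaving out single libraries moved the log2 difference, haploid lines minus R1, between 3.78 and 4.21 for miR-320-3p, 1.51 and 1.68 for miR-484, 3.06 and 3.29 for miR-877-5p, 2.30 and 2.53 for miR-877-3p, 2.80 and 3.37 for miR-1981-5p and 1.33 and 2.69 for miR-702-3p.

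The labels do not say that replicate numbers pair the libraries (correlations of same-numbered deviations -0.177 to 0.139). In a group of 2 libraries the deviations mirror each other, so these correlations could not settle whether the numbers pair. With a replicate block, miR-702-3p was called in the haploid lines (2.06, adjusted p = 0.0367) and in A129-6 (2.56, adjusted p = 0.0284), 2 members were called between the haploid lines (miR-877-3p, adjusted p = 0.0274, and miR-1981-5p, 0.00948), with 72 miRNAs in all, and miR-1981-5p in R1 minus RS was 0.058.

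Calls between the haploid lines were the least settled: against 29 miRNAs and 0 members, there were 0 miRNAs with total-count scaling, 3 with a stricter filter (10 CPM in 2 libraries), 82 and 1 member without a filter, 90 and 1 member with DESeq2, 2 with all 12 libraries fitted, and 89 and 2 members without the 2 libraries of lowest TMM factor, an alternative added after seeing the data. Leaving out single libraries gave 0 to 80 miRNAs (9 and 6 without A129-2 replicates 1 and 2, 0 without A129-6 replicate 1 or 2, 80 without A129-6 replicate 3, 44 without A129-17 replicate 2) and 0 to 2 members. The cause was not tested.

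In R1 minus RS, miR-320-3p was -0.73 with upper-quartile and -0.53 with total-count scaling. miR-1981-5p turned to 0.67 without a filter, 0.64 with scaling on miRNAs outside the miR-290 cluster, 0.30 with GC correction and 0.37 without the 2 libraries of lowest TMM factor, and lay between -0.22 and 0.71 when single libraries were left out. miR-191-5p, haploid lines minus R1, was 0.22 with all 12 libraries fitted.

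The canonical median moved with scaling. For the haploid lines minus R1 (0.15) it was -0.10 with RLE, 0.46 with upper-quartile and 0.025 with total-count scaling, 0.29 with the stricter filter, 0.026 without the miR-290 cluster, -0.13 with GC correction, 0.020 without the 2 libraries of lowest TMM factor, 0.22 with counts summed per line, -0.090 with DESeq2, 0.87 with all 12 libraries, and 0.065 to 0.32 without single libraries. For the haploid lines minus RS (2.62) it was 2.24, 1.14 and 1.00 with those scalings, 1.69 without a filter, 1.37 with the stricter filter, 2.43 without the 2 libraries, 2.93 with summed counts, 1.29 with DESeq2 and 2.41 to 3.27 without single libraries. For R1 minus RS (2.02) it was 2.20, 1.08 and 1.35 with those scalings, 1.85 without a filter, 1.24 with the stricter filter, 2.73 without the miR-290 cluster, 3.20 with GC correction, 2.61 without the 2 libraries, 0.84 with DESeq2 and 2.01 to 3.19 without single libraries.

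Of counts outside the miR-290 cluster, the members made up 2.54% in A129-2, 2.91% in A129-6, 5.39% in A129-17 (3.61% over the lines) and 0.209% in R1. Without single libraries the arm differences ranged from -0.50 to -0.33 points for miR-320, 6.78 to 8.40 for miR-877 and 2.25 to 2.97 for miR-1981, none past the threshold, since fewer libraries allow no smaller p. Depth limits the spermatid values: 3 counts over RS equal 5.30 CPM.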

Other observations

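The arms of the mirtron miR-702 were too thinly counted for a test. In A129-17 replicate 1, 14 of 19 reads were of the 5p arm (73.7%, exact 95% interval 48.8 to 90.9%). In the other haploid libraries the 5p arm took 0 to 37.5% of 3 to 45 reads, and in R1 1 of 4 and 2 of 12 reads. The seed of miR-702-5p was shared with miR-3102-5p, from another mirtron, which was counted 4 times in the haploid lines and 0 times in R1 and in RS.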
